A study of Trichoderma reesei with 11 samples.

Results

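In mycelium of Trichoderma reesei, 96 of 10879 gene IDs were lower without the kinase TR_57513 in constant darkness while the strains lay close to each other in constant light. T. reesei is a filamentous fungus that secretes cellulases when it grows on cellulose. The libraries came from 2 strains grown on cellulose in minimal medium at 28 °C for 96 h. The deletion strain was QM6a lacking both mus53 and TR_57513, with 3 libraries in darkness (Δ57513_DD) and 3 in light (Δ57513_LL). The parent was QM6a lacking mus53 only, with 2 libraries in darkness (mus53_DD) and 3 in light (mus53_LL). Both strains thus carried the mus53 deletion, and the labels do not say how many transformants or cultures stand behind the libraries.

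The series title names TR_57513 as the MAPKKK of the HOG pathway. In this cascade a MAPKKK phosphorylates a MAPKK, which in turn activates a MAP kinase of the Hog1 type. The pathway is best known from yeast, where it drives the response to high osmolarity. In the mould Aspergillus nidulans a red-light receptor is known to signal through the same cascade, and in T. reesei light is known to change cellulase gene expression.

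The members were chosen by their own CPM values (counts scaled by the library total), so the strain ratios below are a description. A gene ID had to reach 5 in mus53_DD, with a ratio of Δ57513_DD to mus53_DD of at most 0.5 and a ratio in light of 0.67 to 1.5, all on group means plus 0.5 CPM. Each of the 3 Δ57513_DD libraries had to lie below both mus53_DD libraries. The first and last 20 IDs of each of the 7 lettered series, TrA to TrG, were skipped. Of the 10596 IDs left, 7298 reached the level in mus53_DD (called expressed IDs here), 278 also met the dark ratio and 226 also showed no overlap in darkness. These 226 divided into the 96 members, 100 IDs below the window in light and 30 above it.

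**Figure D1:**
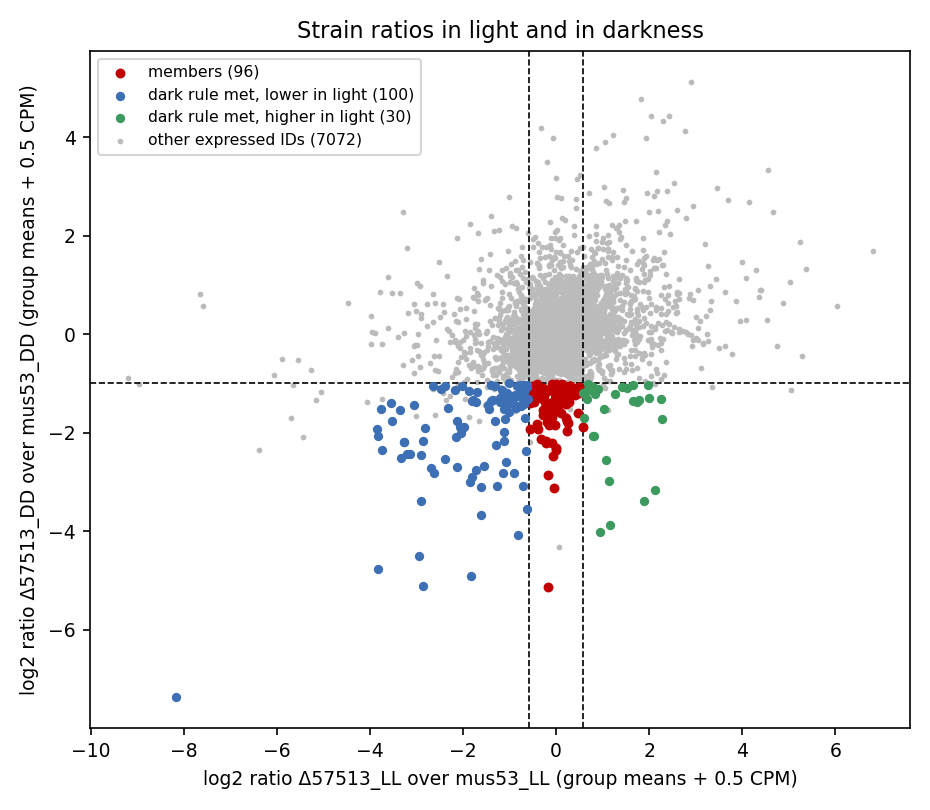
Each point is a gene ID that reached the minimum level in mus53_DD, placed by its log2 strain ratio in light (horizontal) and in darkness (vertical), with the limits of the rule as dashed lines. The 96 members (red) fill the lower middle field, between 100 IDs also lower in light (blue) and 30 higher in light (green).

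The table does not pair its IDs with gene names, and none of the 10879 IDs was found in the RefSeq gene table, so no role, sequence or position is given for any member, and the deleted gene was not looked up. Library totals ran from 13790024 to 18278047 counts in darkness and from 8020351 to 10184280 in light. The labels number the dark libraries in one run and the light libraries in another, so this numbering and the light condition cannot be told apart. Deletion replicate 1 in darkness stood apart from its group. Across the 9040 IDs tested, its log2 values correlated at 0.957 and 0.946 with replicates 2 and 3, which correlated at 0.992 with each other. Replicates of the other groups correlated at 0.965 to 0.994. Correlations across IDs are descriptive.

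Among the members the dark ratio had a median of 0.409 and ran from 0.0284 to 0.498, so that most of them sat near the limit. In 53 members it was 0.4 to 0.5, in 33 from 0.25 to under 0.4, in 9 from 0.1 to under 0.25 and in 1 below 0.1. Just inside the limit the ratio was 0.498, and for the nearest ID outside it was 0.501. At the edges of the light window, the nearest members had ratios of 0.675 and 1.49, against 0.662 and 1.5007 for the nearest IDs outside. At the level limit, the lowest member stood at 5.05 in mus53_DD and the nearest ID outside at 4.997, both with the 0.5 CPM included. Fewer cells of a type and less RNA per cell cannot be told apart in these bulk libraries.

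The median member stood at 30.1, 60.4 and 55.2 CPM in the 3 Δ57513_DD libraries and at 156 and 94.4 CPM in the mus53_DD libraries. In light the medians were 67.4, 66.6 and 70.4 CPM in Δ57513_LL and 72.8, 60.8 and 63.4 CPM in mus53_LL. The first Δ57513_DD library was the lowest and the first mus53_DD library the highest, while the light libraries lay together. Over all 7298 expressed IDs the library medians were 45.7 to 52.4 CPM.

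**Figure D2:**
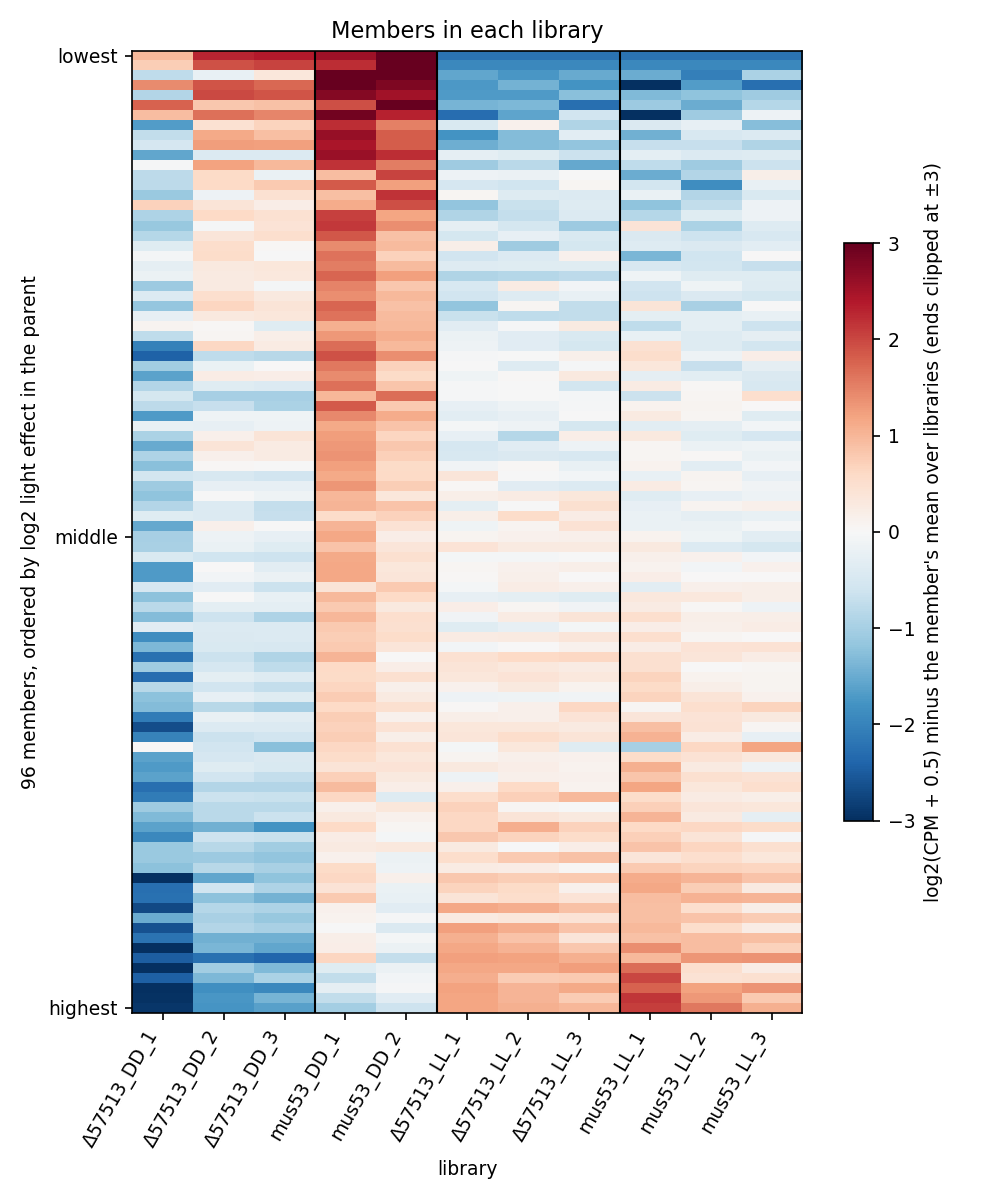
Rows are the 96 members, ordered by the log2 light effect in the parent, and columns are the 11 libraries by group. Colour gives log2(CPM + 0.5) minus the member's mean over libraries. The mus53_DD columns are high at the top, the Δ57513_DD columns are low at the bottom, and deletion replicate 1 in darkness is the lowest of its group for 82 of the 96 members.

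The size of the dark difference depended on single libraries. Deletion replicate 1 in darkness was the lowest of its group for 82 of the 96 members, against 54.5% of expressed IDs. Its ratio to the mus53_DD mean had a median of 0.228, while replicates 2 and 3 had medians of 0.486 and 0.446. With replicates 2 and 3 alone, 58 members kept a ratio of at most 0.5, and the highest was 0.623. Parent replicate 1 in darkness was the higher of its pair for 78 members, with a median ratio of 1.40 to parent replicate 2, against 1.07 over expressed IDs. The rule applied without deletion replicate 1 in darkness chose 101 IDs, of which 58 were members. Without parent replicate 1 in darkness it chose 107, of which 57 were members.

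A dark library that took no part in the choice gave a reading of the same difference. With deletion replicate 1 left out of the choice, 75 of the 101 chosen IDs were lower in it than in the parent, against 54.8% of expressed IDs, and the median ratio was 0.428. For deletion replicate 2 this held for 115 of 115 chosen IDs, with a median ratio of 0.509, and for deletion replicate 3 for 110 of 112, with 0.486. The corresponding shares over expressed IDs were 48.6% and 49.0%. Left-out parent replicate 1 was above the deletion mean for 80 of 107 chosen IDs, against 52.6% of expressed IDs. For left-out parent replicate 2 this held for 120 of 122, against 42.4%. In these readings the libraries of the other strain still served both the choice and the reading.

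Leaving out a dark library of each strain jointly removed that overlap. In 5 of the 6 pairs, 82.3% to 92.5% of the chosen IDs were lower in the unused deletion library than in the unused parent library, with median ratios of 0.339 to 0.673. Over expressed IDs these shares were 40.6% to 54.0%. The exception was the pair of deletion replicate 1 and parent replicate 1. There 59 of 164 chosen IDs, or 36.0%, were lower in the deletion strain, against 55.7% of expressed IDs, and the median ratio was 1.42. For that pair most chosen IDs went the other way in the unused libraries, while the median ratio over expressed IDs was 0.955. Of its 164 chosen IDs, 39 were members. In the other pairs members made up 76 of 101, 76 of 124, 89 of 149, 67 of 115 and 87 of 147, so these readings cover other IDs too. The joint omission was chosen after seeing the data.

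**Figure D3:**
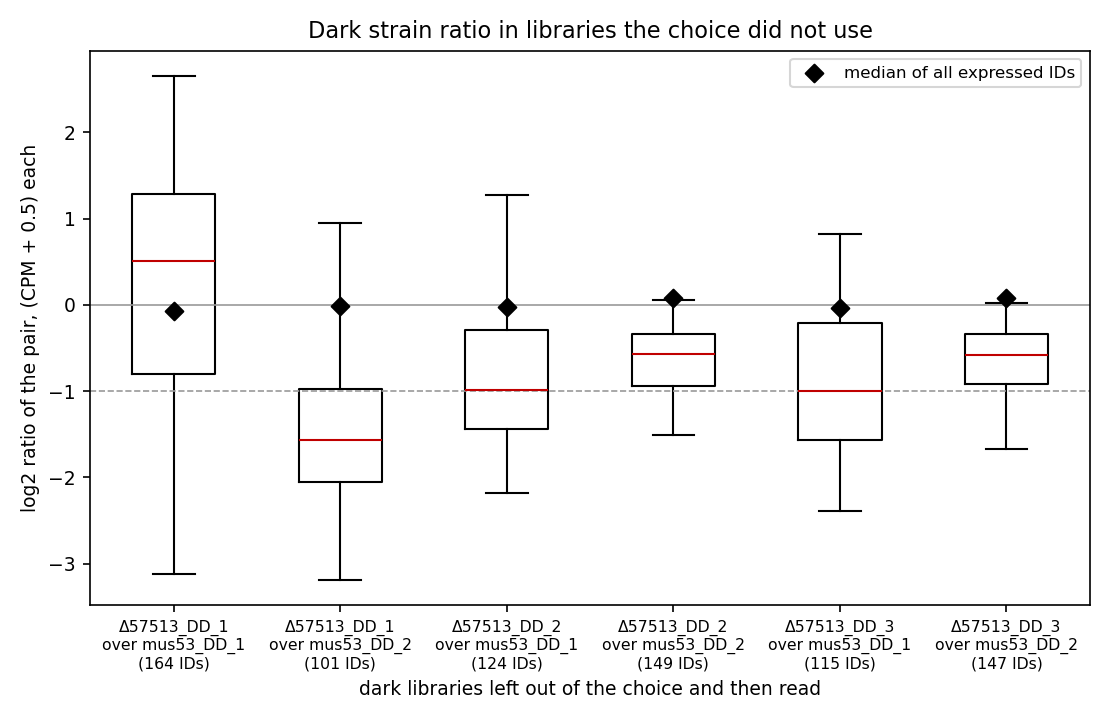
For each pair of dark libraries left out of the choice, the box gives the quartiles of the log2 ratio of the deletion to the parent library over the chosen IDs, the red line the median and the whiskers the 5th and 95th percentiles; diamonds are medians of all expressed IDs. In 5 pairs the median lies below 0, and for deletion replicate 1 over parent replicate 1 it lies above 0.

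A model of all 11 libraries in edgeR gave the error of each strain difference, with p-values adjusted over the 9040 IDs tested and a threshold of 0.05. The rule had used these contrasts, so the numbers only describe the members. In darkness 59 of the 96 passed as lower in the deletion strain, where 4.97% of all tested IDs did. Leaving out parent replicate 1 in darkness lowered this number to 33, and leaving out deletion replicate 1 raised it to 71. Over all tested IDs the number passing as lower was 449 in the full fit and 587 without deletion replicate 1, and it also fell without parent replicate 1. The median log2 fold change of the members in darkness was -1.35, and that of all tested IDs 0.01.

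A light ratio within the window is not equality. In light 6 members passed as lower in the deletion strain, where 13.1% of all tested IDs did, and 0 passed as higher, where 13.9% did. The number passing was 15 without deletion replicate 1 in darkness and 3 without deletion replicate 2 in light. Over all tested IDs 1187 passed as lower and 1258 as higher in the full fit. These numbers were 1466 and 1589 without the first of these libraries, and 696 and 825 without the second. The libraries of the strains in light did not overlap for 22 members, against 50.4% of tested IDs, with the deletion strain lower in 16 and higher in 6. For 12 of the 94 members with counts in light, the 95% interval of the strain effect lay wholly inside the window. The intervals use the TMM scaling of edgeR, while the window was set on library totals. The matching share over all tested IDs was not computed. TrA1899C and TrA1900W had 0 counts in all 6 light libraries, and their light ratio of 1.0 came from the added 0.5 alone.

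Whether the strain effect differed between the light conditions was read from the interaction, the strain effect in light minus that in darkness. It passed with a positive sign for 30 members, where 5.37% of all tested IDs did, and with a negative sign for 0, where 5.42% did. All 30 also passed the strain test in darkness, while 37 members passed neither. Leaving out parent replicate 1 in darkness left 15 that passed the interaction. The number was 18 when parent replicate 2 in light was omitted, and 16 and 19 for deletion replicates 2 and 3 in light. It was 46 without deletion replicate 1 in darkness and 51 with DESeq2. The positive calls over all tested IDs moved too, from 485 in the full fit to 298, 278 and 270 without these 3 light libraries. They were 606 without deletion replicate 1 in darkness and 768 with DESeq2. They also fell without parent replicate 1 in darkness, a fit that leaves 1 library in mus53_DD.

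TrC0398W and TrC1211C had the lowest dark ratios. TrC0398W stood at 0.711, 1.27 and 2.10 CPM in the Δ57513_DD libraries, against 50.5 and 79.8 CPM in mus53_DD. In light it was close to absent, at 0.196, 0.110 and 0.224 CPM in Δ57513_LL and 0.233, 0 and 0.570 CPM in mus53_LL. Only the parent in darkness was high, and its log2 strain effect in darkness was -5.65 (SE 0.48). Its interaction missed the threshold, at 4.96 (SE 1.38, edgeR adjusted p = 0.0507).

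TrC1211C stood at 4.32, 10.2 and 10.2 CPM in Δ57513_DD and at 85.5 and 66.0 CPM in mus53_DD. In light its 6 libraries lay between 8.63 and 11.3 CPM. Here too the parent in darkness alone was high, and the other 3 groups overlapped. The log2 strain effect was -3.24 (SE 0.29) in darkness and -0.14 in light, where the 95% interval was -0.76 to 0.48. Its dark ratio of 0.115 stayed between 0.102 and 0.140 when any dark library was left out.

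TrC1093C and TrC1211C had the lowest adjusted p for the interaction. TrC1093C showed no low first library, with 52.9, 54.3 and 50.5 CPM in Δ57513_DD, against 126 and 102 CPM in mus53_DD. In light it was at 168, 198 and 213 CPM in Δ57513_LL and at 149, 165 and 146 CPM in mus53_LL. The deletion strain thus lay below the parent in darkness without overlap and above it in light without overlap. The strain effect in light, a log2 fold change of 0.25 (SE 0.10), missed the threshold (edgeR adjusted p = 0.105). Without parent replicate 1 in darkness its dark ratio was 0.518, just outside the rule.

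TrC1130C and TrC1121W held the most counts in mus53_DD. TrC1130C had 2462, 9706 and 9185 CPM in Δ57513_DD and 17817 and 16589 CPM in mus53_DD. In light it ran from 14913 to 15827 CPM in Δ57513_LL and from 12732 to 18913 CPM in mus53_LL, so only the deletion strain in darkness was low. Its log2 strain effect in darkness was -1.32 (SE 0.44), which missed the threshold (edgeR adjusted p = 0.0859). TrC1121W had 1322, 3064 and 2634 CPM in Δ57513_DD and 6093 and 4640 CPM in mus53_DD. In light it was 2383 to 2609 CPM in Δ57513_LL and 3504 to 3834 CPM in mus53_LL, without overlap. Without deletion replicate 1 in darkness the dark ratios of TrC1130C and TrC1121W were 0.549 and 0.531, outside the rule, and without parent replicate 1 in darkness that of TrC1121W was 0.504.

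**Figure D4:**
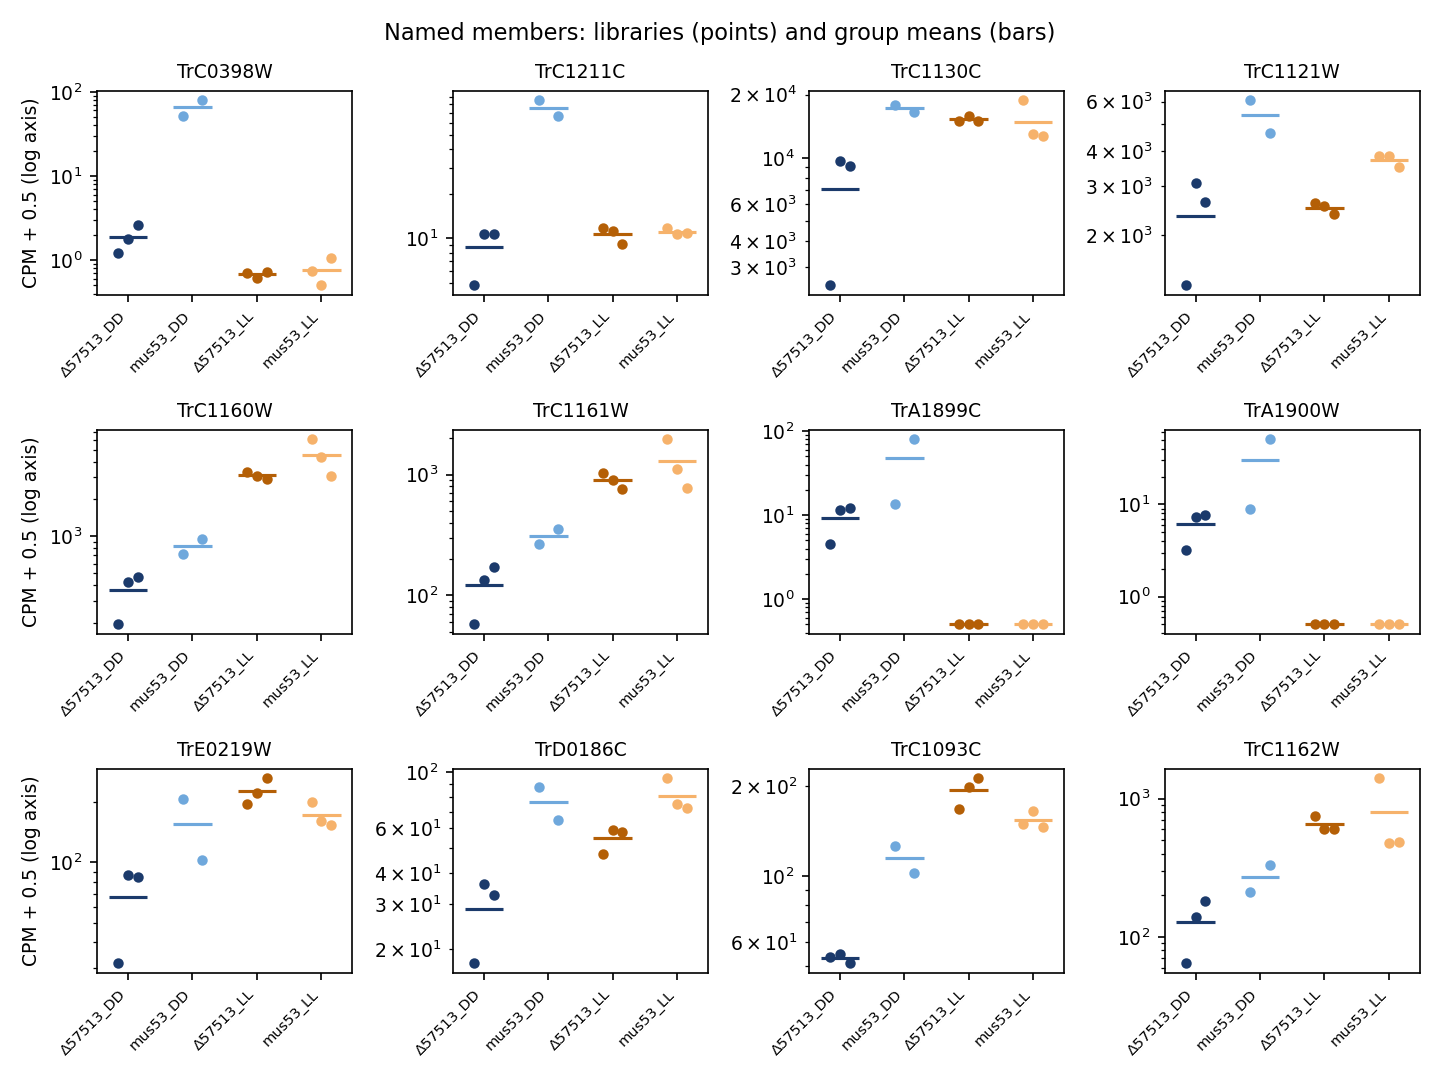
Each panel shows 1 named member, with CPM + 0.5 on a log axis whose range differs between panels; points are libraries and bars group means of Δ57513_DD, mus53_DD, Δ57513_LL and mus53_LL. TrC0398W and TrC1211C are high only in mus53_DD, TrC1130C is low only in Δ57513_DD, and TrC1160W to TrC1162W are high in light in both strains.

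The rule set no limit on how the parent responded to light, and there the members differed among themselves. In the parent 52 members were lower in light than in darkness, where 20.4% of all tested IDs were, and 6 were higher, where 18.3% were. The other 38 did not pass. Of the 52, 46 were lower by at least 2-fold. The libraries of parent light and parent darkness did not overlap for 74 members, against 62.2% of tested IDs. The number lower in light was 33 without parent replicate 1 in darkness, and the number higher was 2 without parent replicate 2 in darkness. Those fits leave 1 library in mus53_DD, and over all tested IDs the matching numbers also fell. The same mus53_DD libraries had been required to be high by the rule, so the contrast is not free of the choice.

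A dark parent library unused in the choice gave a reading without that tie. With parent replicate 1 in darkness left out, 45 of 107 chosen IDs were in light at most at 0.5 of that library, against 10.5% of expressed IDs, and 8 were at 2 times its level or more. With parent replicate 2 left out, 39 of 122 were at most at 0.5 of it, against 10.3%, and again 8 were at 2 times its level or more. The shares at 2 times or more were 7.48% and 6.56%, against 7.52% and 6.71% of expressed IDs. With TMM-scaled totals they were 5.22% and 2.56%, against 6.36% and 4.43%, and the shares at most at 0.5 were 50.4% and 45.3%, against 11.8% and 12.02%.

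Among the 52 members lower in light in the parent, the dark deletion strain lay nearer to the light levels than the dark parent did. Their median levels were 44.4 CPM in Δ57513_DD, 109 CPM in mus53_DD, 27.6 CPM in Δ57513_LL and 27.2 CPM in mus53_LL. The median ratio of darkness to light was 1.11 in the deletion strain and 2.93 in the parent. In the deletion strain 15 of these 52 passed as lower in light, 4 as higher and 33 did not pass. The rule ties the light effect of the deletion strain to that of the parent, so these values are a description.

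The 38 members that did not pass in the parent had other median levels. Not passing does not show an equal level in light and darkness. In 5 of the 38 the fitted light effect in the parent was at least 2-fold. For 17 the parent libraries of light and darkness did not overlap, against 62.2% of all tested IDs. The medians of the 38 were 67.0 CPM in Δ57513_DD, 147 CPM in mus53_DD, 166 CPM in Δ57513_LL and 161 CPM in mus53_LL. In 36 of the 38 the mean of Δ57513_DD lay below both light means, and 24 passed as higher in light in the deletion strain. The 6 members higher in light in the parent had medians of 78.2, 233, 534 and 571 CPM in Δ57513_DD, mus53_DD, Δ57513_LL and mus53_LL, and all 6 passed as higher in light in the deletion strain. Over all 96 members, 34 passed as higher in light in the deletion strain, where 20.3% of all tested IDs did, and 15 as lower, where 22.7% did. The rule had placed Δ57513_DD below mus53_DD and kept the strains close in light. Where the parent changed little or rose in light, a higher level in light in the deletion strain largely follows from that choice. The counts for the deletion strain in this paragraph therefore describe the members and test nothing.

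**Figure D5:**
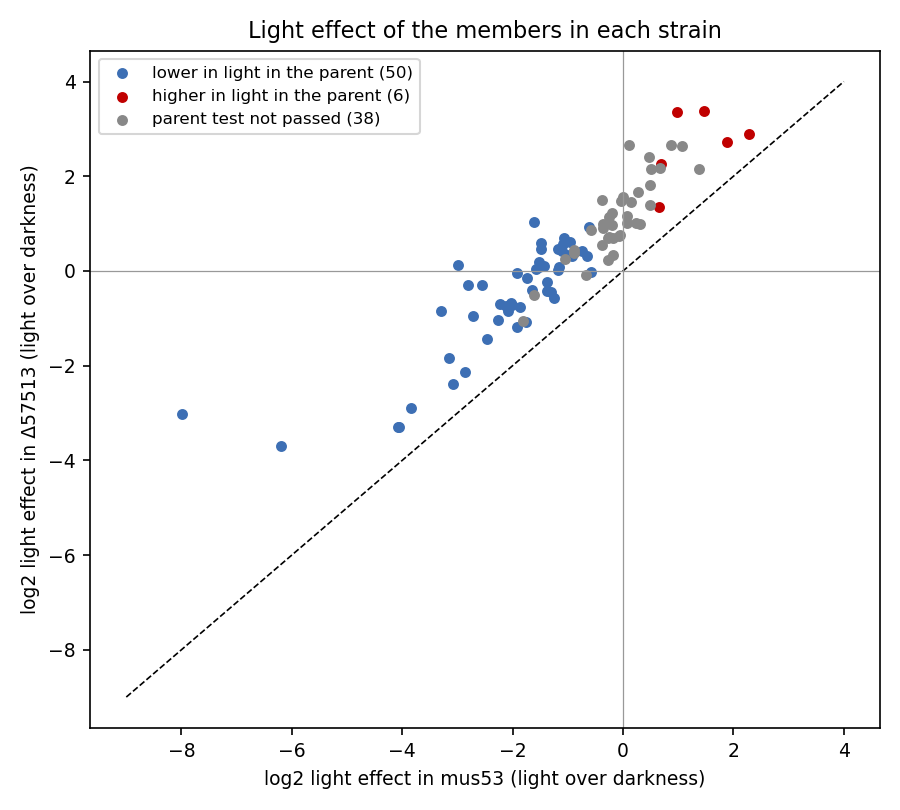
Each point is 1 of the 94 members with counts in light, placed by its fitted log2 light effect in mus53 (horizontal) and in Δ57513 (vertical), coloured by the edgeR call in the parent; the dashed line marks equal effects. The points lie above the line, as the rule fixes. The 50 blue points spread from a rise in light to a fall in light in the deletion strain.

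TrA1899C and TrA1900W had the largest falls in light in the parent. TrA1899C had 0 counts in the 3 mus53_LL libraries, against 13.1 and 80.5 CPM in mus53_DD, and was at least 396-fold lower in light (edgeR adjusted p = 0.00633), with the floor set at 3 counts summed over mus53_LL. TrA1900W likewise had 0 counts in mus53_LL, against 8.40 and 50.7 CPM in mus53_DD, and was at least 250-fold lower (edgeR adjusted p = 0.0067). Against the lower mus53_DD library alone the bounds were 111-fold and 71.0-fold. With only the parent libraries in the fit both missed the threshold (edgeR adjusted p = 0.0575 and 0.0601). In Δ57513_DD they stood at 4.05 to 11.5 and 2.68 to 7.25 CPM. Without parent replicate 2 in darkness their dark strain ratios were 0.684 and 0.680, and neither met the rule.

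TrC1160W and TrC1161W had the largest rises in light in the parent, and with TrC1162W they formed the longest run of neighbouring members. TrC1160W stood at 6116, 4372 and 3061 CPM in mus53_LL, against 720 and 948 CPM in mus53_DD, higher by 2.28 on the log2 scale (SE 0.40; adjusted p = 0.00224 in edgeR). In the deletion strain it was 3326, 3052 and 2899 CPM in light and 193, 427 and 470 CPM in darkness. Light libraries were above dark libraries in both strains, and within darkness the deletion strain was the lower. TrC1161W rose in light in the parent by 1.89 on the log2 scale (SE 0.49; adjusted p = 0.0155 in edgeR), to 774 to 1982 CPM in mus53_LL, against 268 and 353 CPM in mus53_DD. It missed the threshold without parent replicate 1 or 2 in darkness (edgeR adjusted p = 0.11 and 0.0565).

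TrC1162W spanned 479 to 1414 CPM in mus53_LL and stood at 211 and 333 CPM in mus53_DD, and its light effect missed the threshold (edgeR adjusted p = 0.0788). In the deletion strain it was 599 to 752 CPM in light and 63.9, 138 and 182 CPM in darkness. The dark strain ratios of the 3 neighbours were 0.436, 0.388 and 0.471. Without deletion replicate 1 in darkness those of TrC1160W and TrC1162W were 0.538 and 0.589, outside the rule, and without parent replicate 2 in darkness 0.505 and 0.608.

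TrE0219W and TrD0186C had light effects nearest 0 in the parent among the members with at least 20 CPM in mus53_DD. TrE0219W stood at 31.0, 85.7 and 84.0 CPM in Δ57513_DD and at 206 and 103 CPM in mus53_DD. In light it was 195 to 263 CPM in Δ57513_LL and 153 to 199 CPM in mus53_LL. Its log2 light effect in the parent was 0.00 with a 95% interval of -0.90 to 0.91, so a change of nearly 2-fold either way lay inside the interval. Its dark strain ratio was 0.551 without deletion replicate 1 and 0.654 without parent replicate 1 in darkness, outside the rule. TrD0186C stood at 17.0, 35.6 and 32.1 CPM in Δ57513_DD, against 86.7 and 64.4 CPM in mus53_DD. In light it was 47.2, 58.9 and 57.7 CPM in Δ57513_LL and 94.8, 74.3 and 72.1 CPM in mus53_LL. Its strains did not overlap in either condition, and its log2 light effect in the parent was -0.06, with an interval of -0.65 to 0.53.

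Some members had neighbouring serial numbers. Of the 96 members, 17 had a member as direct neighbour, or 17.7%, against 105 of the 7202 other expressed IDs, or 1.46%. With gaps of up to 2 serial numbers, 21 members fell into 10 runs, of which TrC1160W to TrC1162W was the longest with 3. In 5 runs the IDs ended in different letters, W and C, and reads of overlapping genes cannot be assigned with certainty here. The 139 tested direct neighbours that were not members included 19 that passed as lower in the deletion strain in darkness, or 13.7%, against 4.97% of all tested IDs. Another 10, or 7.19%, passed as higher, where 7.25% of all tested IDs did. The median log2 strain effect of these neighbours was -0.05.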

How the data were processed

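RNA was measured in 11 mycelium libraries, stranded and depleted of ribosomal RNA per the labels. The deposited values were raw counts per gene ID. HISAT2 2.2.1 is named in the submitters' processing notes; the sources used here do not give counting settings or genome build. Groups came from the sample titles and columns from the alignment names.

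CPM values use the library totals. Tests used edgeR 4.0.16 in R 4.3.3 (filterByExpr, which left 9040 IDs, TMM scaling, 4 group means, robust quasi-likelihood, Benjamini-Hochberg adjustment), and DESeq2 1.42.0 as an alternative. All 11 libraries shared an estimate of the spread, which for 2 parent libraries in darkness rests on the other groups. P-values measure the spread between these libraries, which may be technical. Intervals are at 95%, and a floor of 3 counts covers counting error only.

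Scaling by library totals alone moved the median log2 light effect of all IDs to 0.15 in the parent and 0.19 in the deletion strain, against 0.00 and -0.01 with TMM.

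The members were chosen with earlier results of these data known. Named IDs, up to 2 per criterion, were those with the lowest dark ratio, the highest mean in mus53_DD, the largest rise or fall in light in the parent, the parent light effect nearest 0 and the lowest interaction p, plus the longest run of neighbours.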

Additional observations from a re-analysis of the deposited data

Results flagged for a closer look

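The named members with a passing interaction test were TrC1211C and TrC1093C. Both had been named for the lowest adjusted p of that test, so their passing was tied to how they were picked. The log2 strain effect in light minus that in darkness was 3.11 for TrC1211C (edgeR adjusted p = 0.00235) and 1.40 for TrC1093C (edgeR adjusted p = 0.0013). The choice of members had used both contrasts, so these values describe them.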

How the results depend on the processing

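Applying the rule with a dark ratio of at most 0.4 left 43 IDs. A narrower light window left 62, and a passing interaction 30. The other settings gave 86 to 107, or 93 to 122 without each library in turn. With TMM-scaled totals the rule chose 96 IDs, of which 84 were members. With 2 added to the means it chose 103, of which 88 were members. Without each library in turn, the members lower in light in the parent numbered 33 to 60, those higher 2 to 9, those lower in the deletion strain in darkness 33 to 71, those passing in light between strains 3 to 15, those passing the interaction 15 to 46 and those higher in light in the deletion strain 26 to 34. DESeq2 called 51 members for the interaction. Over all tested IDs the calls moved too. Without deletion replicate 1 in darkness, 2191 were lower and 1844 higher in light in the parent, against 1841 and 1657 in the main fit. In that fit 587 were lower in the deletion strain in darkness, against 449, and 606 had a positive interaction, against 485. Without deletion replicate 2 in light, 1322 were higher in light in the deletion strain, against 1832. The ranges alone thus do not single out the members. The cause of these shifts was not tested. Omissions of a dark parent library leave 1 sample in that group, assumed to vary like the others. The main fit did not treat replicate numbers as pairs. Deviations from the group means correlated at -0.378 to 0.261 between libraries of equal number. Libraries of unequal number were not compared, so these values cannot decide whether the numbers pair the libraries. With the replicate block, 3 members were higher in light in the parent, 47 lower, 40 lower in the deletion strain in darkness and 20 passed the interaction. Calls over all tested IDs fell too. In light in the parent 1421 were higher and 1666 lower, against 1657 and 1841 in the main fit. In darkness 255 were lower in the deletion strain, against 449, and 358 had a positive interaction, against 485. For the 12 named members, 183 of 204 alternatives for the light effect in the parent kept direction and side of the threshold, 4 lost the call and 6 gained it. The other 11 reversed the sign of a value near 0 that passed in neither fit. The log2 light effect of TrE0219W was -0.023 with DESeq2 size factors in edgeR, -0.024 with DESeq2, -0.0036 with no filter, -0.068 with the replicate block, -0.0027 with the parent libraries alone and -0.39 to 0.54 without each library in turn. That of TrD0186C was 0.089 with library totals alone and -0.22 to 0.13 without each library in turn. With TMM-scaled totals, the shares lower in left-out dark libraries were 71.6%, 100% and 98.2% for deletion replicates 1 to 3 and 75.7% and 99.1% for parent replicates 1 and 2.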

Other observations

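The members were spread over all 7 lettered ID series. TrG held 16 of them among 782 expressed IDs, or 2.05%, TrC 19 of 1113, or 1.71%, and TrD 14 of 943, or 1.48%. TrB held 17 of 1398, or 1.22%, TrA 18 of 1507, or 1.19%, TrE 9 of 895, or 1.01%, and TrF 3 of 660, or 0.455%. The share over all expressed IDs was 1.32%. IDs ending in W made up 52 members and those ending in C 44, or 1.44% and 1.19% of their expressed IDs.

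The deletion strain in darkness had the lowest of the 4 group means for 62 of the 96 members, and for 47 all its 3 libraries lay below all libraries of the other groups. Over expressed IDs these shares were 32.0% and 9.32%. The parent in darkness had the highest group mean for 71 members, against 15.8% of expressed IDs. Since the rule placed the deletion strain below the parent in darkness, these shares describe the members and test nothing.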
